A study of Rattus norvegicus with 17 samples.

Results

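Thrombomodulin (Thbd), prostacyclin synthase (Ptgis), annexin A2 (Anxa2) and P-selectin (Selp) are genes through which vessel endothelium sets the local balance between an anti-thrombotic and a pro-thrombotic surface. They were followed here in the rat arteriovenous fistula, a surgical join of vein and artery that is used in patients as access for haemodialysis. The genes were chosen by name: every probe on the array with a value in the authors' deposited value table was kept if its accession mapped to one of these rat symbols. Each of the 4 genes had 1 probe, out of 9879 different probes with a value.

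Luminal endothelial cells were laser-captured from rat vessels 13 to 14 days after surgery in which the superficial epigastric vein was connected to the common femoral artery, and 17 regions were each hybridized to 1 single-colour array. The NIH vein group (n = 5) was epigastric vein on arterial flow whose intima had thickened (neointimal hyperplasia), and the stenotic side branch group (n = 3) was narrowed side branches of that vein under arterial flow. The venous-flow vein group (n = 6) was epigastric vein beyond a ligation, on venous flow and free of lesions, and the femoral artery group (n = 3) was the common femoral artery under arterial flow, also free of lesions. Ligation is the operation on the labels of the venous-flow vein and fistula construction on those of the other vessels, so the operation and the vessel cannot be told apart in any comparison with it. Every array therefore came from an operated animal, and no unoperated vessel was compared. Each RNA sample pooled 10 captures. The sources used here give neither strain nor age. The design text names 6 rats without saying which region came from which, while the titles carry 17 different specimen labels whose meaning is not given. If the 17 regions came from 6 rats, some arrays share an animal, which the p-values over regions do not take into account. These p-values could then be too small or too large, depending on which arrays share an animal.

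Thrombomodulin sits on the luminal membrane, binds thrombin and turns it from a clotting enzyme into an activator of the anticoagulant protein C. Prostacyclin synthase makes prostacyclin, which keeps platelets from aggregating and relaxes smooth muscle, and annexin A2, paired with S100a10, holds plasminogen and its tissue activator at the cell surface so that fibrin is dissolved. P-selectin is stored in the Weibel-Palade bodies of endothelial cells and in platelet granules and, once on the surface, captures leukocytes and platelets.

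The deposited data exist in 2 forms that disagree on which vessel an array came from, and this decides several results below. For 12 of the 17 arrays the scanner output matched a column that the value table gives to a different sample; the 5 NIH vein arrays matched their own. All 6 scanner arrays of the venous-flow vein were the value table's stenotic side branch and femoral artery arrays, and the value table's 6 venous-flow arrays were the scanner files of the other 2 groups. Every comparison is therefore given in both forms, scanner output first, and once the data had been seen a comparison was added that does not depend on the assignment, NIH vein against the other 12 arrays. The deposited background of 11 arrays equalled the average of 2 other arrays to within 0.001 intensity units. These were all arrays except the 5 NIH veins and stenotic side branch 1. The source of the background therefore nearly coincides with NIH vein against the other 12 arrays, and the 2 cannot be told apart there. Where the background was the array's own, on 6 arrays, none of the 4 genes exceeded the 95th percentile of the negative control spots on NIH vein 5 or stenotic side branch 1, where 7.24% and 16.7% of the 10000 spots did. On NIH vein 1 to 4 between 99% and 100% of all spots exceeded it, these genes among them. NIH vein 1 and stenotic side branch 3 stood apart from the rest: their nearest array was each other (r = 0.888 over 9879 probes), and their median r with the other arrays was 0.624 and 0.628. Levels are normalized log2 intensities of scanner output unless the value table is named, with a floor of 5.65 and a median over all probes of 6.12. Of 11 endothelial markers only Kdr, the main receptor for vascular endothelial growth factor, had a value; its mean was 6.93 in NIH vein, 8.01 in stenotic side branches, 6.93 in venous-flow vein and 6.06 in femoral artery. In such pooled captures, fewer endothelial cells and less RNA per cell cannot be told apart.

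Thbd varied widely between arrays, with an SD of 1.21 over the 17 on the log2 scale, above that of 95.3% of probes. The levels in NIH vein were 7.98, 8.40, 8.45, 7.79 and 6.59, with a mean of 7.84 ± 0.75 (SD, n = 5). In the stenotic side branches they were 7.06, 7.44 and 7.0 (7.17 ± 0.23, SD, n = 3), the lowest group mean. The 6 venous-flow arrays ran from 7.26 through a median of 8.60 to 11.39 (8.97 ± 1.61, SD), and the 3 femoral arteries measured 7.50, 8.69 and 7.94 (8.04 ± 0.60, SD). Venous-flow vein 5, at 11.39, and venous-flow vein 1, at 10.35, were the only arrays above 9, and venous-flow vein 6, at 8.76, was just above the highest array of the other vessels, femoral artery 2 at 8.69. The remaining 3 arrays of that group lay within the range of the other vessels. Before normalization these 2 arrays gave 3334 and 1622 intensity units above background, against 45.4 to 640 on the other 15.

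The direction of the Thbd comparisons changed with the vessel to which those 2 bright arrays were assigned. In the value table they are stenotic side branches 1 and 2, where the levels were 10.32, 11.38 and 8.66 (10.12 ± 1.37, SD, n = 3). The value table's venous-flow arrays ran from 6.68 to 8.58 (7.37 ± 0.71, SD, n = 6), its femoral arteries measured 8.32, 7.39 and 6.99, and its NIH veins measured 7.81, 8.28, 8.33, 7.60 and 6.16. The 3 stenotic arrays then lay above every array of the other groups, while in scanner output the same vessel had the lowest mean.

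The stenotic side branch against venous-flow vein difference in Thbd was -1.80 ± 0.74 (SE) in scanner output (adjusted p = 0.242, limma, all tests over 9879 probes), with overlapping groups. In that comparison 0.405% of probes were called at an adjusted p under 0.05. In the value table the same difference was 2.75 ± 0.59 (SE), a 6.71-fold higher level, with no overlap and an adjusted p of 0.098; 0.172% of probes were called there, and the groups did not overlap in 5.24%. Against NIH vein the value table gave 2.48 ± 0.61 (SE, adjusted p = 0.139) and scanner output -0.67 ± 0.77 (SE, adjusted p = 1); 0.283% and 0.0911% of probes were called in these forms, and 7.77% of probes in the value table had groups without overlap. Thbd passed the threshold in neither form. Between NIH vein and venous-flow vein it differed by -1.13 ± 0.64 (SE, adjusted p = 0.408) in scanner output, where 0.0405% of probes were called, and by 0.26 ± 0.51 (SE, adjusted p = 0.9) in the value table. That comparison called 0% of probes with limma in the value table, where 622 probes (6.3%) had an unadjusted p under 0.05. NIH vein against the other 12 arrays gave -0.44 ± 0.62 (SE, adjusted p = 0.816), less than its error, and 0.132% of probes were called in scanner output and 0.0911% in the value table.

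**Figure D1:**
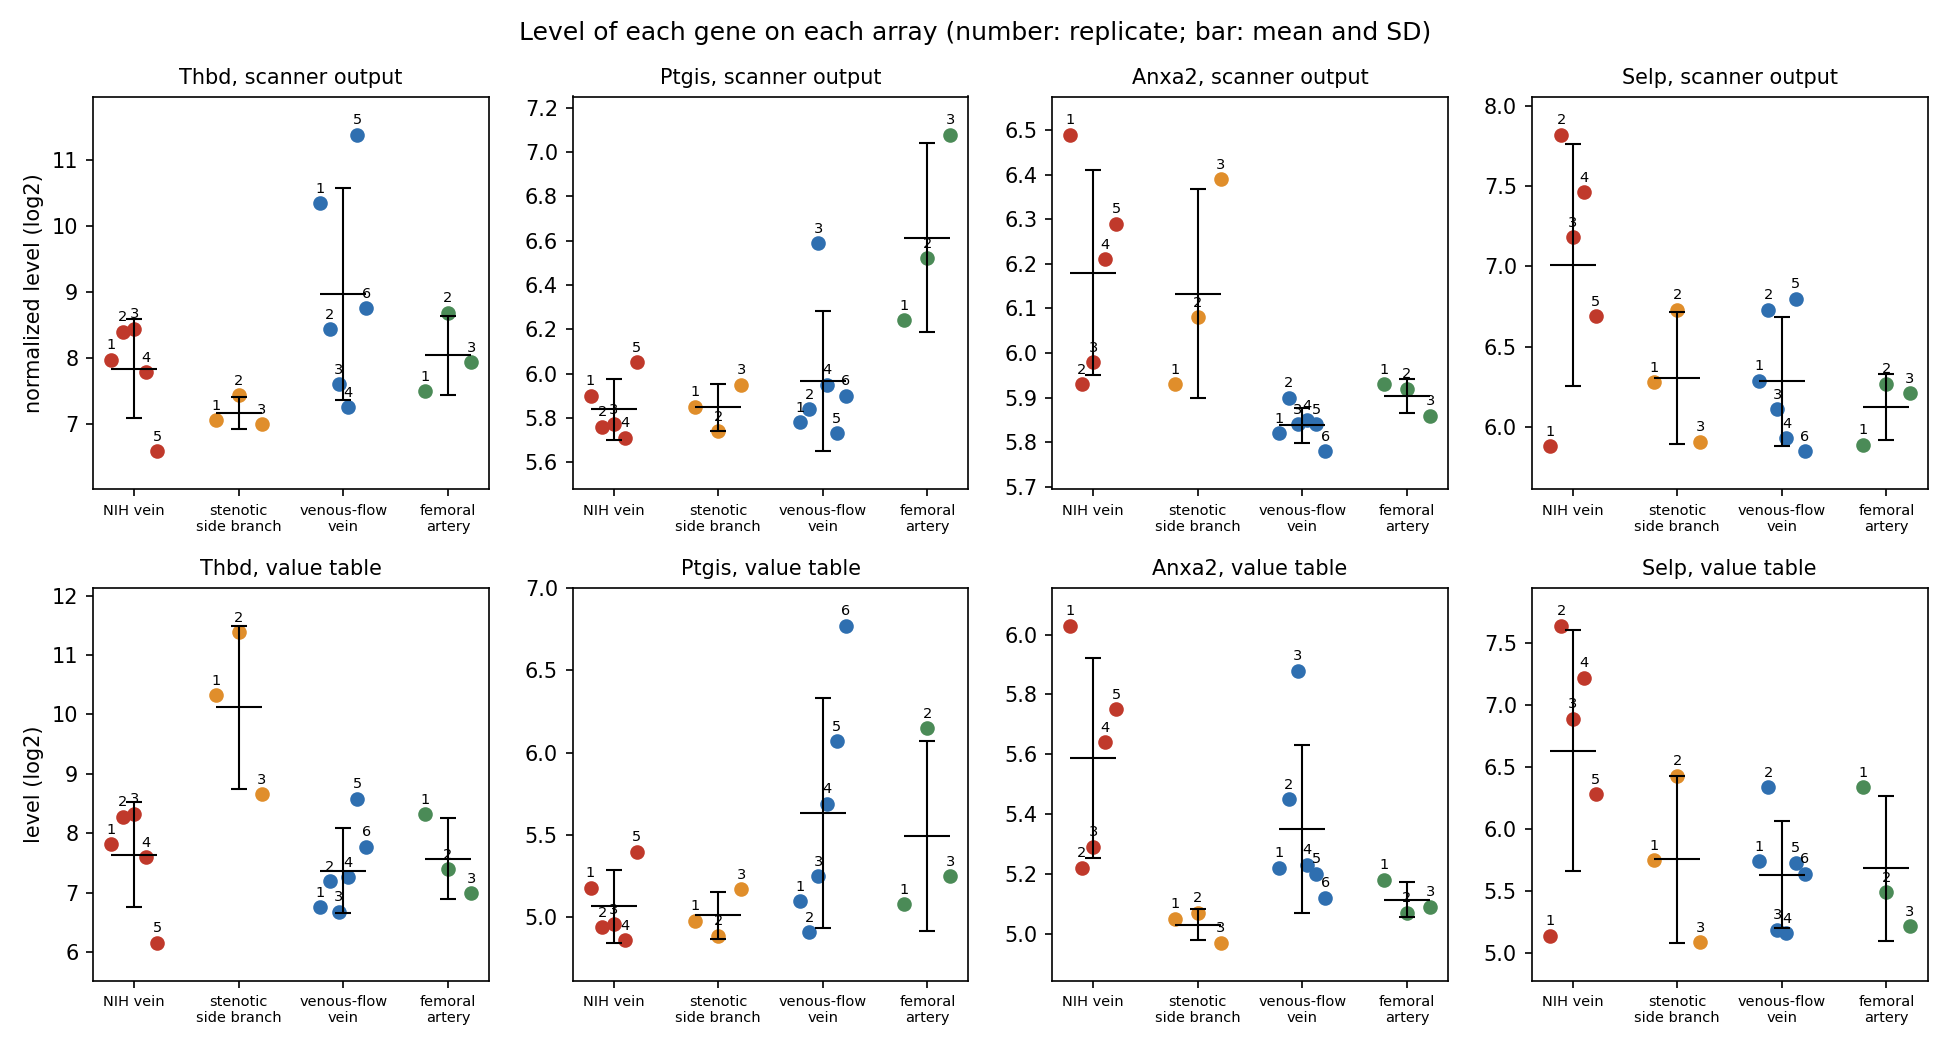
Normalized log2 level of Thbd, Ptgis, Anxa2 and Selp on each array (points) by vessel group, with the group mean and SD as bars and the replicate number above each point, in scanner output (upper row) and in the value table (lower row). Thbd reaches 11.39 on one scanner venous-flow array and 11.38 on one value table stenotic array, while Ptgis and Anxa2 stay near the floor on most arrays.

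Ptgis was near the floor in the veins and above it in scanner femoral arteries. Its levels were 5.90, 5.76, 5.77, 5.71 and 6.05 in NIH vein (5.84 ± 0.14, SD, n = 5) and 5.85, 5.74 and 5.95 in stenotic side branches (5.85 ± 0.10, SD, n = 3). The femoral arteries measured 6.24, 6.52 and 7.08 (6.61 ± 0.42, SD, n = 3). In venous-flow vein the levels ran from 5.73 through a median of 5.87 to 6.59 (5.96 ± 0.32, SD, n = 6), with only venous-flow vein 3, at 6.59, above 6. All 3 femoral arteries lay above all NIH veins and all stenotic side branches, and they overlapped with venous-flow vein through that 1 array. Before normalization the separation was smaller: femoral artery 1 gave 29.5 intensity units above background, within the NIH vein range of 24.5 to 52.6, and the other 2 gave 68.7 and 97.6.

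NIH vein against femoral artery was the only comparison in which one of the 4 genes passed the threshold. Ptgis was lower in NIH vein by -0.78 ± 0.19 on the log2 scale (SE, adjusted p = 0.0495, limma), in 5 of 5 arrays, where 2.32% of all probes were called and the groups did not overlap in 15.4%. Against the same arteries, the stenotic side branch difference was -0.77 ± 0.22 (SE, adjusted p = 0.0815), with no overlap, where 1.86% of probes were called and 26.4% had groups without overlap. The venous-flow vein mean was lower as well, and femoral artery against venous-flow vein gave 0.65 ± 0.19 (SE, adjusted p = 0.863). In that last comparison limma called 0% of probes, and 486 (4.92%) had an unadjusted p under 0.05. The 3 comparisons share the femoral artery arrays.

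The Ptgis call rested on the margin of the threshold and on the scanner assignment. In the value table the femoral arteries measured 5.08, 6.15 and 5.25 and the NIH veins 5.18, 4.94, 4.96, 4.86 and 5.40. The groups then overlapped, and the difference was -0.43 ± 0.35 (SE, adjusted p = 0.674). In that comparison limma called 0% of the value table's probes, and 1064 had an unadjusted p under 0.05. The value table's venous-flow arrays ran from 4.91 to 6.77, with 5.69, 6.07 and 6.77 on arrays 4, 5 and 6, and its stenotic side branches measured 4.98, 4.89 and 5.17. Stenotic side branch against femoral artery gave -0.48 ± 0.40 (SE) there, with overlapping groups. Of 25 other settings, 7 kept the call and 18 did not, with adjusted p from 0.0161 to 0.674. Without femoral artery 3 the difference was -0.54 (adjusted p = 0.128), and without femoral artery 1 it was -0.96 (adjusted p = 0.116). NIH vein against the other 12 arrays gave -0.26 ± 0.19 (SE, adjusted p = 0.642), with 0 of 5 NIH arrays above the mean of the 12.

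Kdr had its lowest group mean in the same femoral arteries. Its linear level was 59 to 78 there, 91 to 161 in NIH vein, 158 to 479 in stenotic side branches and 57 to 214 in venous-flow vein, whose range covers that of the femoral arteries. The 3 measured fibroblast markers of 7, Dcn, Col1a2 and Col3a1, summed to 664 to 3184 in femoral artery and 9763 to 39311 in NIH vein, while the 2 measured smooth muscle markers of 8, Tagln and Des, summed to 121 to 165 and 108 to 135. These levels follow the scanner assignment. Between NIH vein and femoral artery the median fibroblast difference was 0.98 in scanner output (3 higher, 0 lower) and -0.02 in the value table (1 higher, 2 lower). Kdr differed by 0.87 and 0.40 in the 2 forms. The part of these markers in the Ptgis difference was not tested.

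**Figure D2:**
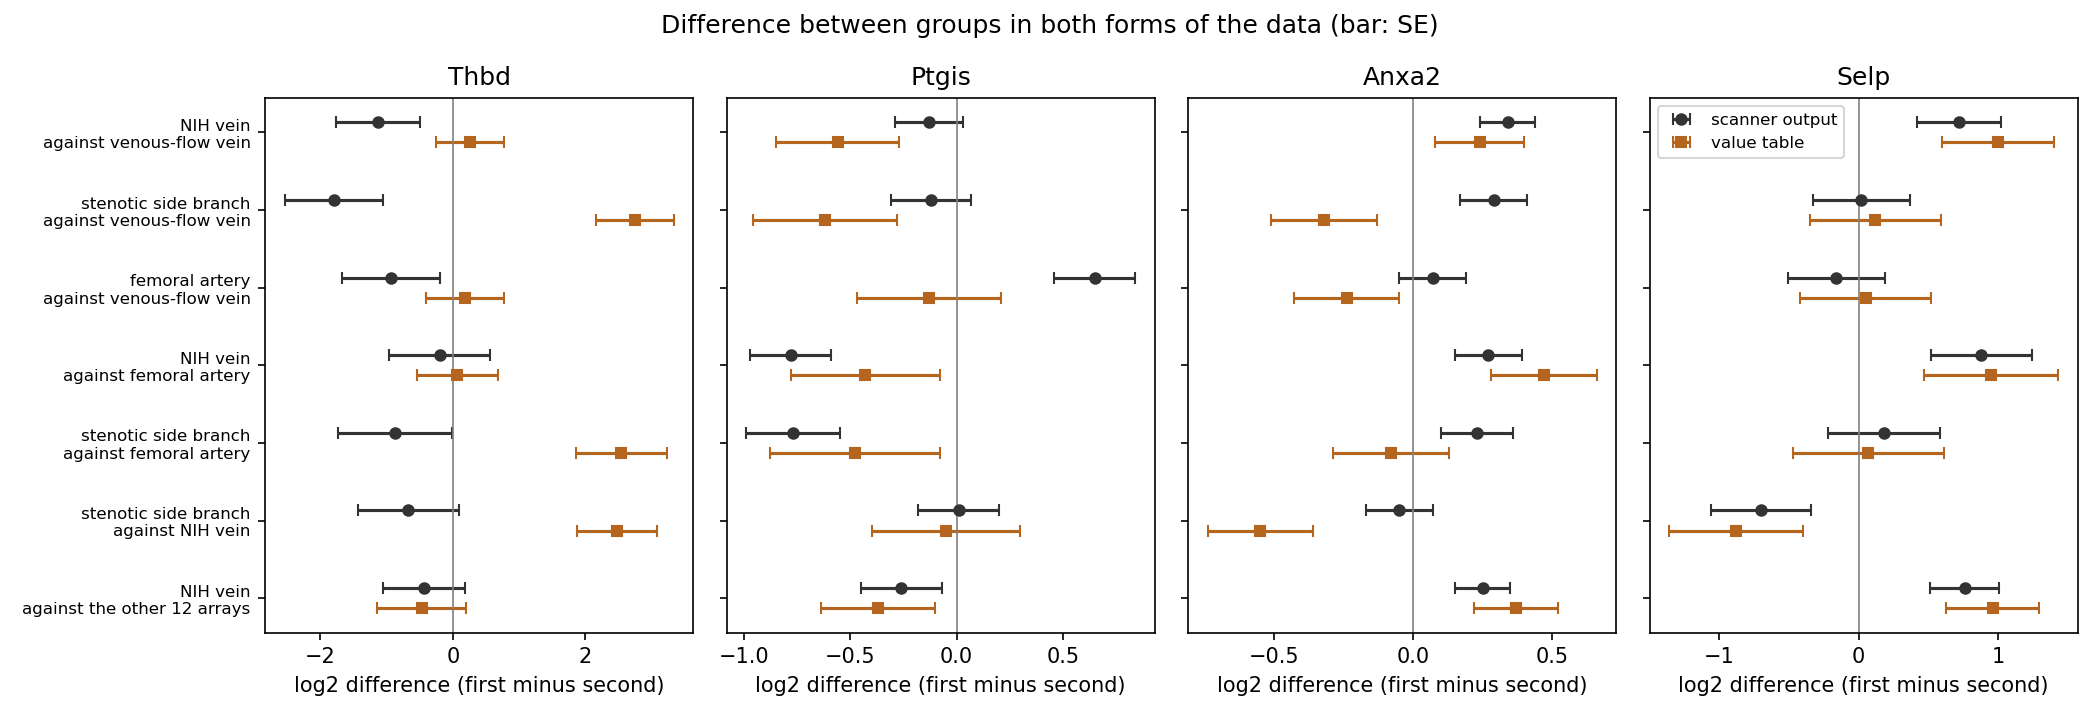
Log2 difference, first group minus second (horizontal axis), of Thbd, Ptgis, Anxa2 and Selp in each comparison (vertical axis), with SE bars, for scanner output (circles) and the value table (squares). For Thbd in stenotic side branch against venous-flow vein the 2 forms lie on opposite sides of 0, at -1.80 and 2.75, while for Selp in NIH vein against the other 12 arrays they lie at 0.76 and 0.96.

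Anxa2 stayed within 1 log2 unit of the floor on every array. It was the one gene of the 4 with an entry in the set of rat promoter windows used here (GRCr8). That set held no entry for Thbd, Ptgis or Selp, which is a limit of the set. Its sequence is shown as description only, and no link to the transcription factors measured on the same arrays was tested. The window is chr8:78986002-78986301 on the + strand, 250 bases before the annotated start and 50 after it, and capitals mark the motif matches described next.
Anxa2 promoter: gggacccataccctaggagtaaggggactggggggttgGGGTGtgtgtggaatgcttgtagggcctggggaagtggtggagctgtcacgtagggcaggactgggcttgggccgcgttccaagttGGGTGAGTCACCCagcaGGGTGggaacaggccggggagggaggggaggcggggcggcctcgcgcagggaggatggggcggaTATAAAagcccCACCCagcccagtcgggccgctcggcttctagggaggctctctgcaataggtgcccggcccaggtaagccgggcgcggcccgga
Searched on both strands, CACCC, the core of sites bound by Krüppel-like factors, matched 5 times, at -212, -126, -118, -109 and -34 from the start, and 54.9% of the 33469 rat promoter windows hold it. TGANTCA, the AP-1 motif, matched once at -123, overlapping the CACCC matches on either side of it, and 7.33% of windows hold it. TATAAA matched once at -45 (14.2% of windows) and the NF-kB motif did not match (0.362% of windows). These are letters in the sequence and not measured binding.

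The Anxa2 levels in NIH vein were 6.49, 5.93, 5.98, 6.21 and 6.29 (6.18 ± 0.23, SD, n = 5), and in the stenotic side branches 5.93, 6.08 and 6.39 (6.13 ± 0.23, SD, n = 3). Venous-flow vein ran from 5.78 through a median of 5.84 to 5.90 (5.84 ± 0.04, SD, n = 6), and the femoral arteries measured 5.93, 5.92 and 5.86 (5.90 ± 0.04, SD, n = 3). Both groups with a lesion lay wholly above venous-flow vein after normalization, by a narrow margin, and the spread within the groups without a lesion was small. Before normalization NIH vein gave 42.2 to 117 intensity units above background, against 27.4 to 39.4 in venous-flow vein. Stenotic side branch 1, at 28.3, lay within that venous-flow range. These intensities also carry the brightness of each array. The median spot gave 47 to 80.9 units above background on NIH vein arrays and 30.9 to 56.3 on venous-flow arrays. The highest values were NIH vein 1 and stenotic side branch 3, the pair of arrays that stood apart from the rest.

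Anxa2 was higher in NIH vein than in venous-flow vein by 0.34 ± 0.10 on the log2 scale in 5 of 5 arrays (SE, unadjusted p = 0.00379, adjusted p = 0.154, limma), which did not pass. Groups that do not overlap were found for 1.2% of probes in that comparison. Stenotic side branch against venous-flow vein gave 0.29 ± 0.12 (SE, adjusted p = 0.224), also without overlap, against 11.9% of probes. With NIH vein 1 and stenotic side branch 3 both left out, a setting that was not planned, the differences were 0.26 and 0.17 (adjusted p = 0.183 and 0.553). In the value table NIH vein differed from venous-flow vein by 0.24 ± 0.16 (SE, adjusted p = 0.749) with overlap, and the stenotic side branch difference was -0.32 ± 0.19 (SE, adjusted p = 0.826). Its levels there were 6.03, 5.22, 5.29, 5.64 and 5.75 in NIH vein and 5.05, 5.07 and 4.97 in stenotic side branches. The value table's venous-flow arrays ran from 5.12 to 5.88 and its femoral arteries measured 5.18, 5.07 and 5.09, so the stenotic side branches lay below all of its venous-flow arrays. NIH vein against the other 12 arrays gave 0.25 ± 0.10 (SE, adjusted p = 0.366) in scanner output, with 4 of 5 NIH arrays above the mean of the 12. The value table gave 0.37 ± 0.15 (SE, adjusted p = 0.355, limma), with 5 of 5 above it.

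Selp was highest on NIH vein 2, 3 and 4. Its levels there were 5.88, 7.82, 7.18, 7.46 and 6.69 (7.01 ± 0.75, SD, n = 5), with NIH vein 1 near the floor. The stenotic side branches measured 6.28, 6.73 and 5.91 (6.31 ± 0.41, SD, n = 3) and the femoral arteries 5.89, 6.27 and 6.21 (6.13 ± 0.20, SD, n = 3). Venous-flow vein ran from 5.85 through a median of 6.20 to 6.80 (6.28 ± 0.40, SD, n = 6). NIH vein 2, 3 and 4 lay above all 12 other arrays, NIH vein 5 lay among the highest of those, and NIH vein 1 was below most of them. Before normalization NIH vein 2, 3 and 4 gave 241, 263 and 192 intensity units above background, against 35.6 on NIH vein 1.

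The 5 NIH arrays are the same in both forms, and in the value table Selp measured 5.14, 7.64, 6.89, 7.22 and 6.28 on them. The value table's stenotic side branches measured 5.75, 6.43 and 5.09, its femoral arteries 6.34, 5.49 and 5.22, and its venous-flow veins 5.16 to 6.34, so NIH vein 1 was again among the lowest arrays. NIH vein against the other 12 gave 0.76 ± 0.25 (SE, unadjusted p = 0.00778, adjusted p = 0.359, limma) in scanner output and 0.96 ± 0.33 (SE, adjusted p = 0.355) in the value table. In each form 4 of 5 NIH arrays lay above the mean of the 12. The difference did not pass in either form, while 12.5% of all probes had an unadjusted p under 0.05 in scanner output. With NIH vein 1 and stenotic side branch 3 left out it was 1.01 (adjusted p = 0.0806). This setting was added and not planned, and it drops the NIH array with the lowest Selp. Against venous-flow vein the difference was 0.72 ± 0.30 (SE, adjusted p = 0.248) and against femoral artery 0.88 ± 0.36 (SE, adjusted p = 0.154), and these share the NIH arrays. In the value table these were 1.00 ± 0.40 (SE, adjusted p = 0.719, limma) and 0.95 ± 0.48 (SE, adjusted p = 0.49).

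P-selectin is also a platelet protein. The summed platelet and red cell markers overlapped between all 4 groups, but this sum mixes both cell types and does not measure platelets alone. The 6 measured of 12 (Pf4, Gp9, Gp1bb, Alas2, Hbb and Slc4a1) summed to 364 to 1257 in NIH vein, 370 to 1020 in stenotic side branches, 365 to 902 in venous-flow vein and 473 to 1570 in femoral artery. Gp9, a subunit of the platelet receptor for von Willebrand factor, was within 0.5 of the floor on all arrays. The haemoglobin gene Hba-a3, outside this list, did not overlap between stenotic side branches (log2 level 11.37 to 12.59) and venous-flow vein (7.13 to 10.25) in scanner output. It was 10.10 to 12.79 in NIH vein and 9.56 to 13.12 in femoral artery. The part of these blood cell genes in the Selp values was not tested.

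The balance of the genes was then read array by array, as the deviation of each gene from its own mean over the 17 arrays. In NIH vein Selp was above its mean on 4 of 5 arrays and Thbd on 2 of 5. Selp was above and Thbd below on 2 NIH arrays, both were above on 2, both were below on 1, and no NIH array had Thbd above with Selp below. In venous-flow vein Thbd was above its mean on 4 of 6 arrays and Selp on 2 of 6, and 2 arrays had Thbd above with Selp below. None of the 3 stenotic side branches had Thbd or Ptgis above its mean, and all 3 femoral arteries had Ptgis above and Selp below.

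No single array carried an extreme deviation in all 4 genes. Thbd deviated by 3.24 on venous-flow vein 5 and 2.20 on venous-flow vein 1, and by -1.56 on NIH vein 5. Selp deviated by 1.35 on NIH vein 2 and Ptgis by 1.06 on femoral artery 3. The largest Anxa2 deviation was 0.49, on NIH vein 1, where Selp was at -0.59. These counts use the scanner assignment, and the stenotic side branch, venous-flow vein and femoral artery counts change with it.

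**Figure D3:**
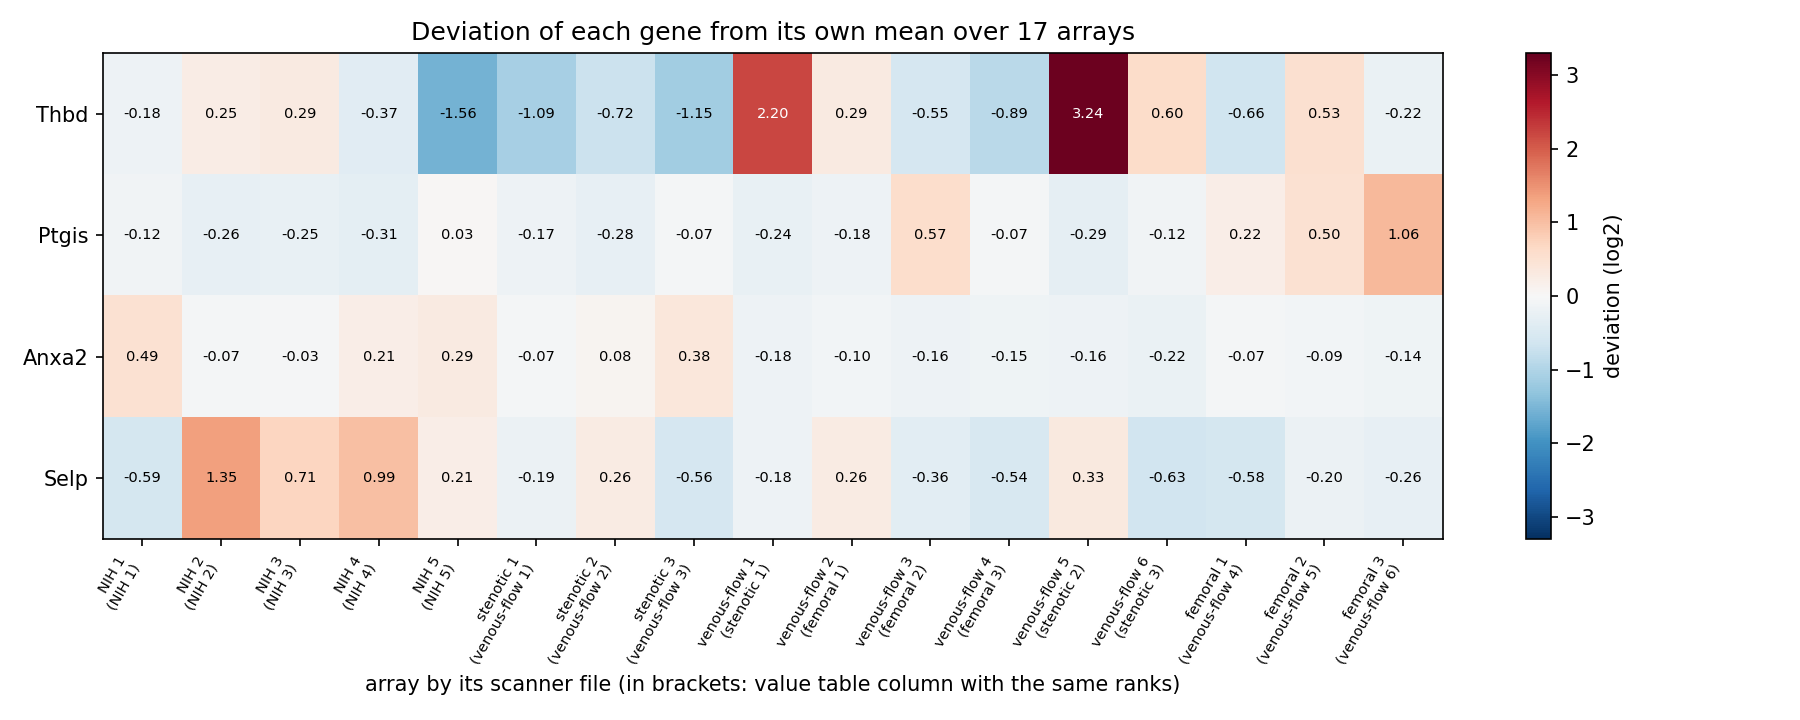
Deviation of Thbd, Ptgis, Anxa2 and Selp from the gene's own mean over the 17 arrays (log2), array by array and grouped by vessel in scanner output, with the matching value table sample in brackets; red is above the mean and blue below. Selp is positive on NIH vein 2 to 5, and the 2 largest Thbd deviations, 3.24 and 2.20, are on venous-flow vein 5 and 1.

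Genes with the most similar pattern were taken as the 3 symbols of 2875 with the highest Pearson r over the 17 arrays, a description in which all genes share the arrays and their normalization. For Thbd these were Arl4a (r = 0.916), Cxcl1 (0.91) and Rph3al (0.91), and the lowest was the haemoglobin gene Hba-a3 (-0.748). Cxcl1, a neutrophil-attracting chemokine, reached 12.31 on venous-flow vein 5 and 10.89 on venous-flow vein 1, the arrays where Thbd was highest. Hba-a3 was 7.13 and 7.59 there, against up to 13.12 on femoral artery 1.

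For Anxa2 the most similar were Nxph4 (0.967), Myo5a (0.932) and Psmd4 (0.918), and the lowest was the transcription factor Atf5 (-0.941). Atf5 was 5.83 on NIH vein 1 and 5.81 on stenotic side branch 3, against 8.83 to 12.13 on the other arrays, and without these 2 arrays r was 0.948, 0.849 and 0.821 for the 3 similar genes and -0.871 for Atf5 (15 arrays). For Ptgis the most similar were Wfdc1 (0.823), Nrtn (0.807) and Vac14 (0.791), with Psen2 lowest (-0.789). For Selp they were Nipsnap3b (0.902), Ddah1 (0.883) and Pim3 (0.866), with Prg2 lowest (-0.761). Some of these genes varied little: over the 17 arrays Nxph4, Myo5a and Psmd4 spanned 0.64, 0.62 and 0.43 log2 units. Vac14 spanned 0.27 and Prg2 0.28, so r for these genes rests on small differences near the floor. Ddah1 degrades an endogenous inhibitor of nitric oxide synthase, and Pim3 is a protein kinase. Because r does not use the groups, it changes between the forms only through their values, and in the value table the 3 Selp values were 0.894, 0.876 and 0.86.

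**Figure D4:**
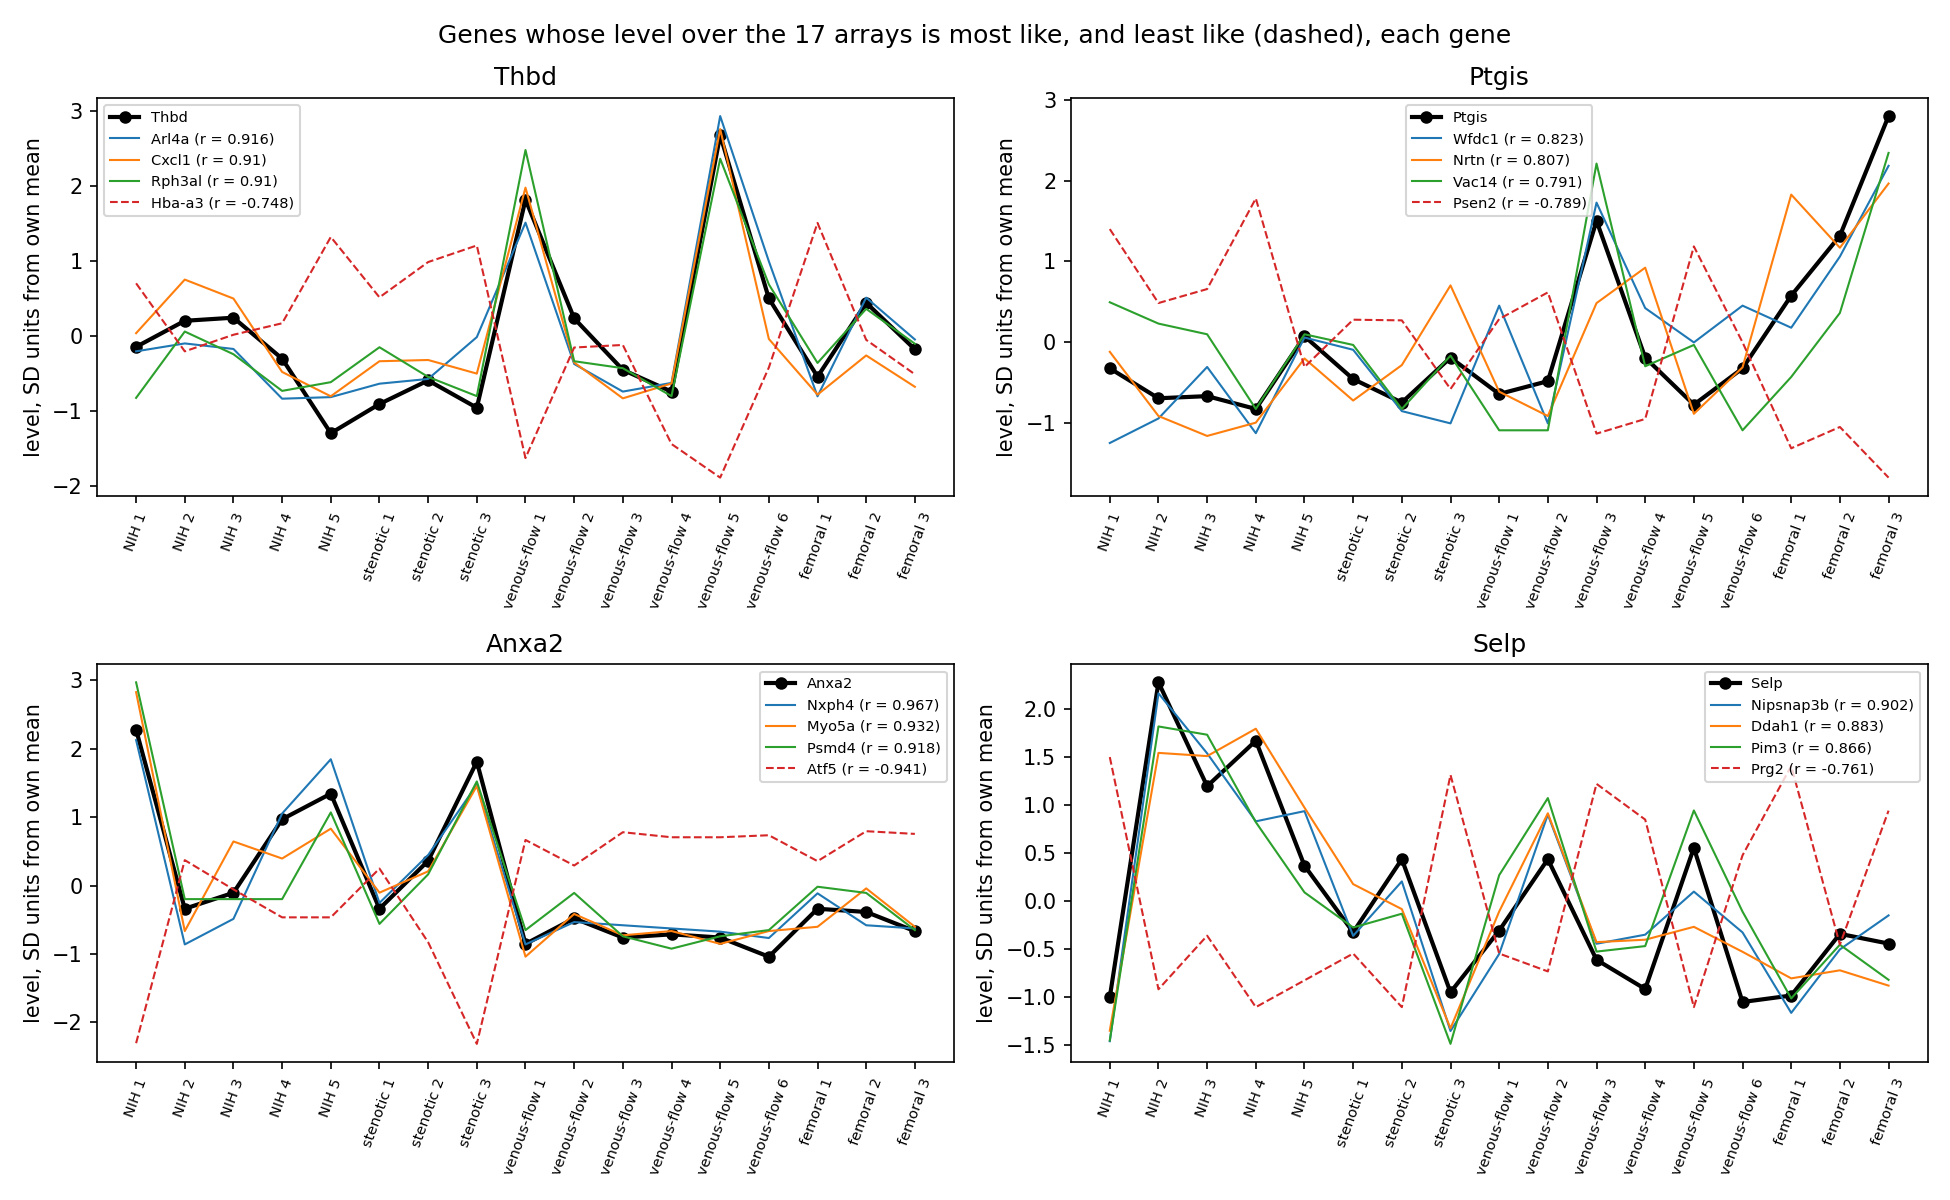
Level of each of the 4 genes (black), of the 3 genes with the most similar pattern (coloured lines) and of the least similar gene (dashed), in SD units from the gene's own mean (vertical axis), on the 17 arrays grouped by vessel in scanner output (horizontal axis; lines join arrays only to guide the eye). The Thbd lines peak on venous-flow vein 1 and 5, those of Anxa2 on NIH vein 1 and, for Anxa2 itself, on stenotic side branch 3, and Pearson r of the most similar gene is 0.916, 0.823, 0.967 and 0.902 for Thbd, Ptgis, Anxa2 and Selp.

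The other genes of the pathway were measured in part. Of 17 anticoagulant and fibrinolytic genes 5 had a value, of 16 prostanoid and nitric oxide genes 4, of 24 procoagulant and antifibrinolytic genes 5 and of 14 selectins and adhesion genes 4. Between NIH vein and venous-flow vein none of these passed the threshold in scanner output with limma, where 1601 of all probes (16.2%) had an unadjusted p under 0.05. The median difference was -0.07 for the anticoagulant genes (2 higher, 3 lower), -0.05 for the prostanoid genes (2 higher, 2 lower), -0.17 for the procoagulant genes (1 higher, 4 lower) and -0.18 for the adhesion genes (2 higher, 2 lower). The median over all probes was 0.03. In the value table the anticoagulant median was 0.27 (5 higher, 0 lower) and the prostanoid median -0.44 (1 higher, 3 lower). There the procoagulant median was -0.03 (2 higher, 3 lower) and the adhesion median 0.14 (2 higher, 2 lower). The value table's median over all probes was 0.00, and none of these genes passed in it.

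Tfpi, the inhibitor of the tissue factor pathway, differed by 0.34 ± 0.14 (SE, adjusted p = 0.254) between NIH vein and venous-flow vein, and S100a10, the partner of annexin A2, by -0.31 ± 1.12 (SE, adjusted p = 0.927). F3, which encodes tissue factor, differed by -0.34 ± 0.19 (SE, adjusted p = 0.394). Icam1 and Vcam1, which bind leukocytes, differed by 0.48 ± 0.42 (SE) and -0.83 ± 0.67 (SE). None of these passed.

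Tgm2, a transglutaminase, and Tbxas1, thromboxane synthase, changed sign with the form in stenotic side branch against venous-flow vein, as Thbd did. Tgm2 differed by -2.18 ± 1.60 (SE, adjusted p = 0.493) in scanner output and 3.71 ± 1.58 (SE, adjusted p = 0.743) in the value table. Tbxas1 differed by 1.27 ± 0.27 (SE, adjusted p = 0.0555) and -1.28 ± 0.44 (SE, adjusted p = 0.556). Neither passed in either form. Of 10 macrophage and myeloid markers 4 had a value (Tyrobp, Cd68, Csf1r and Cd14). Their summed level was 661 to 1679 in scanner stenotic side branches, 310 to 475 in NIH vein, 302 to 579 in venous-flow vein and 414 to 482 in femoral artery. Taken singly, 3 were higher and 1 lower in stenotic side branches than in scanner venous-flow vein (median log2 difference 0.17). Against scanner femoral artery 2 were higher and 2 lower (median -0.09). In the value table all 4 were lower than in venous-flow vein (median -0.69). Tyrobp, a myeloid signalling adaptor, rose in stenotic side branches against venous-flow vein by 2.22 ± 0.33 (SE, adjusted p = 0.00749, limma) in scanner output and differed by -1.44 ± 0.63 (SE, adjusted p = 0.764) in the value table. The part of these markers in the stenotic side branch differences was not tested.

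Among the annexins and S100 genes 7 of 13 had a value. Anxa3, a calcium-dependent phospholipid-binding protein, rose in stenotic side branches against venous-flow vein in the value table by 2.91 ± 0.43 on the log2 scale (SE, adjusted p = 0.0143, limma), where scanner output gave -1.05 ± 0.65 (SE, adjusted p = 0.422). It also passed against femoral artery in the value table, at 2.77 (adjusted p = 0.0327), where 0.192% of probes were called. In NIH vein against venous-flow vein, S100a4 differed by 2.04 ± 0.63 (SE, adjusted p = 0.162), Anxa1 by 1.03 ± 0.51 (SE, adjusted p = 0.346) and Anxa6 by -1.20 ± 0.64 (SE, adjusted p = 0.384), and none passed.

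Of 15 flow-responsive and early-response transcription factors 7 had a value, and 6 of the 7 were higher in NIH vein than in the other 12 arrays. This held in both forms, which contain the same arrays here and are not independent. Of all probes, 54.3% in scanner output and 54% in the value table had a higher NIH mean. Klf6, a Krüppel-like factor, differed by 1.68 ± 0.55 (SE, adjusted p = 0.349) and Nr4a1, an early-response nuclear receptor, by 1.19 ± 0.78 (SE, adjusted p = 0.592) in scanner output. Klf4, a flow-induced factor known to raise Thbd in cultured human endothelium, differed by -0.32 ± 0.56 (SE, adjusted p = 0.858). None of these passed the threshold.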

How the data were processed

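Scanner output deposited by the authors gives the mean signal and mean local background of each spot as raw intensity, per the file headers. The authors' deposited value table holds log2 values for 10000 of 41372 gene spots (9879 different probes), with its scale and centring method not given in the sources used here. In NIH vein against the other 12 arrays it gave the same differences for the 4 genes, and the same 9 calls, as scanner output after background subtraction and quantile normalization. Signal and background were corrected with normexp (offset 50), log2 transformed and quantile normalized over these spots in limma 3.58.1 (R 4.3.3), and spots of a probe were averaged. One limma model with a mean per group was fitted to all 17 arrays, and NIH vein against the other 12 came from a second fit with those 12 as 1 group. P-values are 2-sided, with Benjamini-Hochberg adjustment over 9879 probes; the threshold for a call was 0.05. Each SD was taken over arrays and each SE belongs to a difference. The number of arrays limits the precision. Accessions were matched to symbols through a RefSeq table (3117 spots, 31.2%). Replicate numbers, checked as pairs, gave correlations from -0.609 to 0.321 and were not used as pairs. Lists were represented by the brightest probe of a symbol; up to 4 genes of a list, those with the largest difference between NIH vein and venous-flow vein, and any called gene were named. The genes and lists were chosen with earlier results of these data known. The method was tested on simulated data. Plots were drawn with Python 3.11.15, pandas 2.3.3, numpy 2.4.6 and matplotlib 3.10.9. One further gene of the coagulation balance is not reported here.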

Additional observations from a re-analysis of the deposited data

Results flagged for a closer look

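Ptgis on venous-flow vein 3 lay far from its group in scanner output: its level of 6.59 was the highest of 6, and the others ran from 5.73 to 5.95. Before normalization it gave 36.2 intensity units above background, within the 30.7 to 36.6 of the group, so it stood apart only after normalization. The gap was 0.747 of the whole range, above the critical value of 0.625 for 6 samples. Of 16 groups of values examined in this way, 1 stood out, and chance gives about 1 in 20. In the value table this array is femoral artery 2, where Ptgis was also the highest of its group, at 6.15. With this array left out, NIH vein against femoral artery in Ptgis had an adjusted p of 0.0161, and stenotic side branch against femoral artery passed at -0.77 (adjusted p = 0.0291).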

How the results depend on the processing

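The form of the data moved the 4 genes most: of 28 comparisons, 12 changed sign with the value table. These were Thbd in NIH vein against venous-flow vein (0.26) and femoral artery (0.07), in femoral artery against venous-flow vein (0.19) and in stenotic side branch against venous-flow vein (2.75), NIH vein (2.48) and femoral artery (2.55); Anxa2 in femoral artery (-0.24) and stenotic side branch (-0.32) against venous-flow vein and in stenotic side branch against femoral artery (-0.08); Ptgis in femoral artery against venous-flow vein (-0.13) and stenotic side branch against NIH vein (-0.05); and Selp in femoral artery against venous-flow vein (0.05). Median scaling turned Selp in stenotic side branch against venous-flow vein (-0.03) and Thbd in NIH vein against femoral artery (0.41) and the other 12 arrays (0.00). With replicate numbers as a replicate block, Selp in stenotic side branch against venous-flow vein (-0.04) and Ptgis in stenotic side branch against NIH vein (-0.02) changed sign, and the Ptgis call in NIH vein against femoral artery was lost (-0.74, adjusted p = 0.182). It was also lost with only the 2 groups fitted (adjusted p = 0.0694). Without NIH vein 1 and stenotic side branch 3 it was lost too (adjusted p = 0.073), and Ptgis in stenotic side branch against NIH vein turned to -0.02. Leaving out 1 array at a time gave ranges across 0 for Ptgis in stenotic side branch against venous-flow vein (-0.17 to 0.01) and NIH vein (-0.04 to 0.06), Selp in stenotic side branch against venous-flow vein (-0.19 to 0.22) and femoral artery (-0.03 to 0.38), Anxa2 in stenotic side branch against NIH vein (-0.18 to 0.05) and Thbd in NIH vein against femoral artery (-0.47 to 0.12). The cause was not tested. Background subtraction, no background correction and 1 probe per name changed no sign or call of the 4 genes; a test of the brighter probes, at or above the median mean level, held 14 of the 28 comparisons, without Ptgis and Anxa2.

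The number of probes called, 4 in NIH vein against venous-flow vein, 40 in stenotic side branch against venous-flow vein, 9 in stenotic side branch against NIH vein, 0 in femoral artery against venous-flow vein, 229 in NIH vein against femoral artery, 184 in stenotic side branch against femoral artery and 13 in NIH vein against the other 12 arrays, moved as follows, in that order of comparisons where named. The value table gave 0, 17 and 28 in the first 3, and 0 in NIH vein and 19 in stenotic side branch against femoral artery. Median scaling gave 16, 5 and 3, then 51 and 1 against femoral artery and 31 against the other 12 arrays. Fitting only the 2 groups gave 2, 88 and 0, and 59 in stenotic side branch against femoral artery. The replicate block gave 0, 1 and 1, then 0 and 1 against femoral artery. Leaving out NIH vein 1 and stenotic side branch 3 gave 12, 10 and 1, and 5 in stenotic side branch against femoral artery. The brighter probes gave 9 and 71 against venous-flow vein, 652 in NIH vein against femoral artery and 6 against the other 12 arrays. Background subtraction gave 87 and 3 for stenotic side branch against venous-flow vein and NIH vein, and no background correction gave 97 in NIH vein against femoral artery and 5 against the other 12 arrays. Without 1 array the counts ran from 1 to 284, 8 to 179, 1 to 11, 0 to 0, 0 to 555, 1 to 533 and 3 to 26.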
